A study of Sus scrofa with 10 samples.

Results

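The nuclear genes for the subunits of respiratory complexes I to V were followed in nuclear RNA of cardiomyocytes sorted from minipig (Sus scrofa) hearts. Members were all rows outside the mitochondrial genome whose name begins as a subunit name does (NDUFA, NDUFB, NDUFC, NDUFS or NDUFV with a number, SDHA to SDHD, UQCR, CYC1, COX4 to COX8 and ATP5). This gave 74 of the 35670 gene identifiers in the files, each with its own symbol, though several are known to have processed copies elsewhere in the genome that may share reads. Complex I had 31 of them, complex II 4, complex III 8, complex IV 17 and complex V 12. ATP5IF1, the inhibitor of ATP synthase, and COX7A2L, a factor that joins complexes into supercomplexes, were kept apart. The members lay on 18 chromosomes, and their median span was 7406 bp, against 16572 bp for all genes tested.

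The series concerns atrial remodeling in animals given deoxycorticosterone acetate (DOCA), a mineralocorticoid, and JK07, which its title names as an agonist of the neuregulin receptor ERBB4. DOCA plus JK07 had 3 libraries (8, 9 and 10), DOCA alone had 2 (6 and 7), and 5 (1 to 5) were controls given phosphate-buffered saline (PBS). All 10 were labelled wild type. Chamber, age, dose and time were not stated in the labels used here, and whether each library was its own animal was not stated, so a p-value here speaks of the spread among libraries, possibly a technical one. Values below follow the order of these library numbers.

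Each respiratory complex is built from many small proteins. Complexes I, III and IV pump protons across the inner mitochondrial membrane as electrons pass to oxygen, complex II feeds electrons in from succinate, and complex V uses the proton gradient to make ATP. The mitochondrial genome encodes a small set of core subunits, and all the others, including every subunit of complex II, come from nuclear genes, whose RNA is what was measured here. Cardiomyocytes hold many mitochondria and use muscle isoforms of several complex IV subunits.

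Estimated counts outside ribosomal RNA scaffolds and the mitochondrial genome came to 9.03 to 12.9 M (M, mega) in the DOCA plus JK07 libraries, 6.87 and 3.30 M in the DOCA libraries, and 8.67 to 13.9 M in the control libraries. The DOCA libraries were thus the shallowest by this measure, although library 6 had 76.46 M counts in all. Ribosomal RNA scaffolds took 77.55 to 86.19% of all counts in DOCA plus JK07, 90.77 and 88.23% in DOCA, and 82.08 to 86.28% in control, so both DOCA libraries had the highest share, and its part in the results below was not tested. The DOCA libraries also had the most members listed at 0, 7 and 10 of 74, against 2 in each DOCA plus JK07 library and 1 or 2 in each control. All 11 measured cardiomyocyte marker genes were above 0 in every library. They summed to 5280 to 8650 CPM (counts over the library total multiplied by its TMM scaling factor) in DOCA plus JK07, 3880 to 5890 CPM in DOCA, and 4490 to 5470 CPM in control. In such bulk samples, fewer cells of a type and less RNA per cell cannot be told apart.

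In control nuclei the most abundant member per length was COX4I1, the largest nuclear subunit of complex IV, at 469 ± 78.8 rescaled TPM (deposited TPM, a level per gene length, scaled anew over rows outside the ribosomal scaffolds and the mitochondrial genome, SD, n = 5). NDUFA4, once assigned to complex I and now counted with complex IV, followed at 212 ± 47.6. ATP5IF1 stood at 161 ± 38.6, the ATP synthase delta subunit gene ATP5F1D at 157 ± 15.5, and UQCRC1, a core protein of complex III, at 153 ± 12.7. These 3 overlapped within their SD. In complex I the highest was NDUFB9 of the membrane arm at 107 ± 14.7, and in complex II it was SDHB, the iron-sulfur subunit, at 122 ± 29.2. Levels varied little between controls: the median coefficient of variation of the tested members was 20%, against 28.3% over all genes tested.

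**Figure D1:**
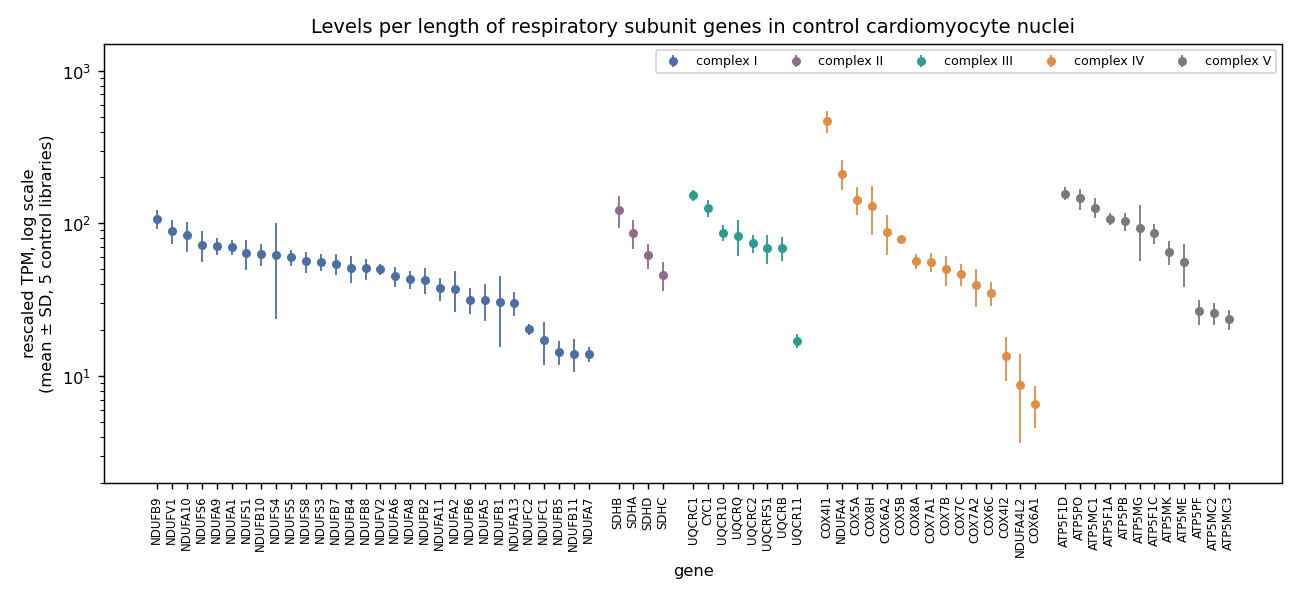
Level per length (rescaled TPM, log scale) of the members in the 5 control libraries, grouped by complex and sorted from high to low; points are means and bars SD. COX4I1 stands highest at 469, and COX6A1 lowest of those drawn at 6.56; COX6B2 and COX7B2, near 0, are left out, and 1 other member is not shown.

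The muscle isoforms of complex IV were on average above their ubiquitous partners in control nuclei. COX6A2, the heart and muscle form, had 88 ± 25.6 rescaled TPM, and its partner COX6A1 had 6.56 ± 2.03. COX7A1 had 55.9 ± 8.13 against 39.2 ± 10.9 for COX7A2, ranges of mean ± SD that still overlap, and COX8H had 130 ± 45.7 against 56.7 ± 6.66 for COX8A. COX4I2, a form known from lung and from cells short of oxygen, had only 13.6 ± 4.4, far under COX4I1. NDUFA4L2, a relative of NDUFA4 induced by low oxygen in other species, had 8.78 ± 5.14. COX6B2, a testis form in other mammals, was listed at 0 in all 10 libraries. COX7B2 was above 0 in 1 control library only, and neither of these genes was tested.

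DOCA against control addressed the effect of the mineralocorticoid alone. Of the 72 members tested, 29 fell and 0 rose in DOCA (edgeR quasi-likelihood test, adjusted p under 0.05 over 17251 genes). Over all genes tested, 19.7% were called lower and 5.73% higher. An unadjusted p under 0.05 was seen for 40 of 72 members, against 36.3% of all genes, and a log2 change below 0 for 67 of 72, against 66.3%. Errors given with log2 changes below are SE from this fit. The members called lower were 8 of 31 in complex I, 1 of 4 in complex II, 5 of 8 in complex III, 7 of the 15 tested in complex IV, 7 of 12 in complex V, and COX7A2L. The median log2 change of the members was -1.05, against -0.63 over all genes tested, a difference of -0.42. In 52 of the 72, both DOCA libraries lay below all 5 control libraries, which was so for 27.6% of all genes tested.

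Another scaling moved all genes together. Under upper quartile scaling the median over all genes was -0.39 and that of the members -0.81, with 21 members called lower and 0 higher. The difference was again -0.42, which a scaling that shifts all genes nearly alike could hardly change. That scaling also changed the split over all genes to 2868 lower and 1523 higher, against 3403 and 988. With a quality weight per library, which lets the DOCA libraries be noisier, 0 members were called, 19 of 72 had an unadjusted p under 0.05, and over all genes 94 were lower and 67 higher. There the difference between the medians was -0.26. It was -0.24 without DOCA library 6 and -0.16 without DOCA library 7. With a filter of 10 counts in 8 libraries it was -0.69, and with limma on log2(TPM + 1) it was -0.75. Of the 29 calls, 19 held when any 1 library was left out.

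**Figure D2:**
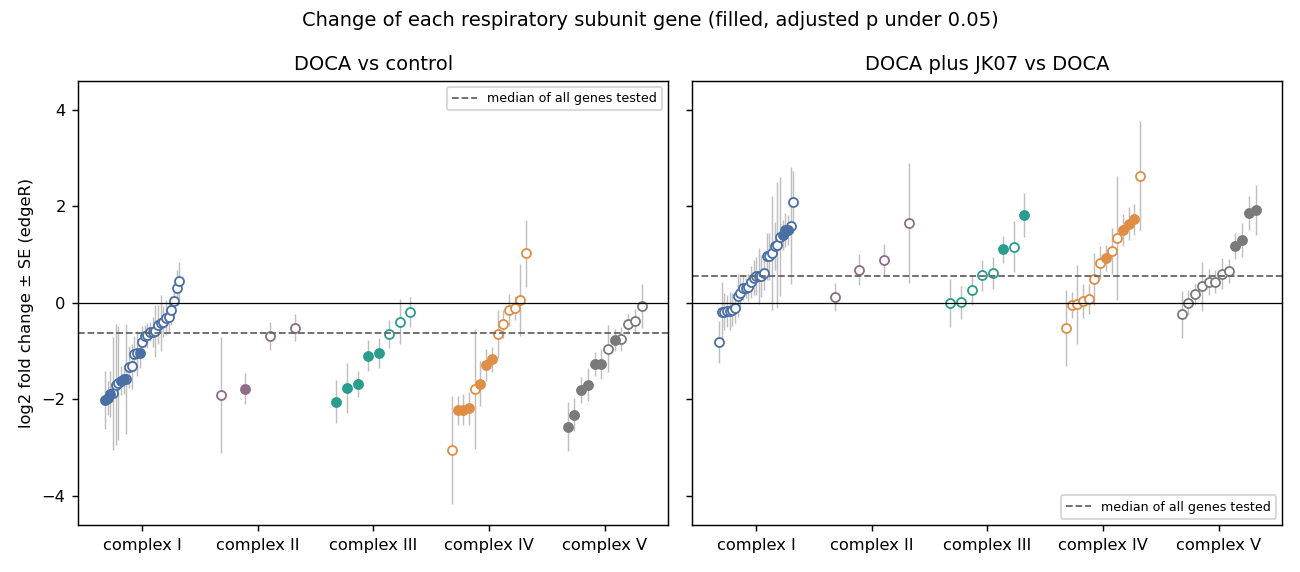
Log2 fold change with SE (edgeR) of each tested member by complex, for DOCA against control (left) and DOCA plus JK07 against DOCA (right); filled points have an adjusted p under 0.05 and the dashed line is the median of all genes tested. NDUFB1, NDUFC1 and COX6A1, at 0 in both DOCA libraries, are not drawn, nor are COX7A2L and ATP5IF1. Most members lie below the dashed line on the left, and they spread around it on the right.

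Among the core subunits of complex I, which carry the electrons from NADH to coenzyme Q, NDUFS1 and NDUFS3 fell. NDUFS1 (ENSSSCG00000016127, chromosome 15, 109409771 to 109451676, build Sscrofa11.1), the largest iron-sulfur subunit, had 4.99 and 3.55 CPM in DOCA, against 16.2, 24.3, 16.2, 15.3 and 11.7 CPM in control. Every control library exceeded both DOCA libraries, and the log2 change was -1.97 ± 0.35 (adjusted p = 0.00268). NDUFS3 of the same arm changed by -1.61 ± 0.30 (adjusted p = 0.00365). NDUFV1 (chromosome 2, 4958522 to 4964216), which binds NADH, had 5.32 and 6.26 CPM in DOCA and 7.31, 10, 11.8, 9.02 and 8.36 CPM in control. These groups did not overlap either, yet the log2 change of -0.69 ± 0.23 (adjusted p = 0.0585) did not pass the threshold. NDUFS8 and NDUFV2 also missed it, with log2 changes of -1.04 and -0.59.

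Of the 25 accessory subunits of complex I, which surround and stabilise the core, 6 fell, against 19.7% of all genes tested. NDUFA9, at the joint of the matrix and membrane arms, changed by -1.58 ± 0.29 (adjusted p = 0.00378). NDUFA1 of the membrane arm changed by -1.89 ± 0.48 (adjusted p = 0.0194). NDUFS4, whose loss causes complex I deficiency in mice and people, changed by -2.01 ± 0.61 (adjusted p = 0.0406), but its controls spread widely, at 5.71 ± 3.30 CPM (SD, n = 5). It was also the member whose deposited counts followed its deposited coverage least closely across libraries (correlation 0.704, n = 10). NDUFB8, an assembly marker of the membrane arm, changed by -1.04 ± 0.32 (adjusted p = 0.0418), and both it and NDUFS4 lost the call when either DOCA library was left out, and when any of several others was.

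The remaining calls of complex I were genes listed at 0 in both DOCA libraries, for which a fitted fold change is no size. NDUFC1 (chromosome 8, 87695266 to 87700899) had 0 in both DOCA libraries, against 1.51, 2.13, 0.98, 1.48 and 0.868 CPM in control. NDUFB1 (chromosome 7, 113652776 to 113659672) had 0 in both, against 0.762, 1.36, 0.37, 0.436 and 0.625 CPM. Both are small membrane-arm subunits. In the deposited tables, values are mostly listed only from a coverage of 1 upwards, and the control means were 2.92 times (NDUFC1) and 5.25 times (NDUFB1) the level that a coverage of 1 would give in the DOCA libraries. With such genes set at that level, the median of complex I stayed at -1.04.

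NDUFB9, the most abundant complex I member per length, had 4.45 and 5.15 CPM in DOCA and 5.65, 7.29, 7.8, 6.45 and 5.64 CPM in control, with a log2 change of -0.45 ± 0.40 (adjusted p = 0.425). The DOCA libraries lay below all controls by little, and no call was made. NDUFB7, NDUFS6 and NDUFA13 were the 3 complex I members with a log2 change above 0, at 0.45, 0.32 and 0.05, none of them called. NDUFA8 and NDUFB11 were at 0 in library 6 only, and NDUFA5 and NDUFC2 in library 7 only, so none of these had a usable fold change.

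In complex II the gene for 1 membrane anchor fell. SDHD (ENSSSCG00000015034, chromosome 9, 39790595 to 39803950) had 1.79 and 1.44 CPM in DOCA, against 5.85, 7.69, 4.34, 5.25 and 4.55 CPM in control, a log2 change of -1.77 ± 0.33 (adjusted p = 0.0035). The DOCA libraries lay well below the lowest control. SDHC, the other anchor, had 7.65 and 0 CPM in DOCA and 12.6, 21, 12.6, 14.6 and 11.5 CPM in control, with a 0 in library 7, and was not called, with a log2 change of -1.91 ± 1.195 (adjusted p = 0.278). The catalytic subunits differed less. SDHA (chromosome 16, 79834044 to 79862524), the flavoprotein that oxidises succinate, had 28.4 and 21 CPM in DOCA and 29.8, 40.3, 47.2, 30.5 and 28 CPM in control, and the groups overlapped. Its log2 change was -0.51 ± 0.28 (adjusted p = 0.216), and that of SDHB was -0.69 ± 0.29 (adjusted p = 0.126).

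Complex III, which passes electrons from coenzyme Q to cytochrome c, had 5 of 8 members lower in DOCA. UQCRC2 (ENSSSCG00000007845, chromosome 3, 24197747 to 24228832), a core protein facing the matrix, had 3.15 and 4.48 CPM in DOCA and 12.3, 15.3, 10.5, 12.7 and 10.3 CPM in control, a log2 change of -1.69 ± 0.27 (adjusted p = 0.00156). UQCRQ (chromosome 2, 135186501 to 135188293), a small subunit, had 1.31 and 0.636 CPM in DOCA and 4.4, 6.09, 3.39, 3.58 and 2.7 CPM in control, a log2 change of -2.05 ± 0.44 (adjusted p = 0.00871). Neither gene overlapped between the groups. UQCR10 (chromosome 14, 46783325 to 46786140) had 0.998 and 1.44 CPM in DOCA and 2.5, 3.13, 2.4, 2.77 and 2.15 CPM in control, with a log2 change of -1.09 ± 0.32 (adjusted p = 0.0352). UQCRFS1 (chromosome 6, 39364890 to 39373872), the Rieske iron-sulfur protein, had 13.3 and 8.03 CPM in DOCA and 25.4, 29.7, 16.4, 19.4 and 17.8 CPM in control, with a log2 change of -1.03 ± 0.31 (adjusted p = 0.0404). These 2 and UQCRB were close to the threshold: leaving out control library 1, 2 or 4 or DOCA plus JK07 library 8 brought the complex to 2 calls, and leaving out control library 3 or DOCA library 7 brought it to 3.

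Other members of complex III differed less. CYC1 (chromosome 4, 606516 to 608996), the cytochrome c1 haem protein, had 11.2 and 7.09 CPM in DOCA and 9.25, 12.5, 12, 8.84 and 9.63 CPM in control. Library 6 lay inside the control range and library 7 below it, the log2 change was -0.19 ± 0.32 (adjusted p = 0.698), and its sign turned without library 7 (0.10) and under upper quartile scaling (0.04). UQCRC1 (chromosome 13, 31298449 to 31309516), the partner of UQCRC2, had 13.6 and 9.57 CPM in DOCA and 16.8, 19.6, 18.5, 19 and 16.2 CPM in control, below all controls but at -0.64 ± 0.29 (adjusted p = 0.145). The core proteins thus differed by -1.69 and -0.64 on the log2 scale, a gap that was not tested itself.

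**Figure D3:**
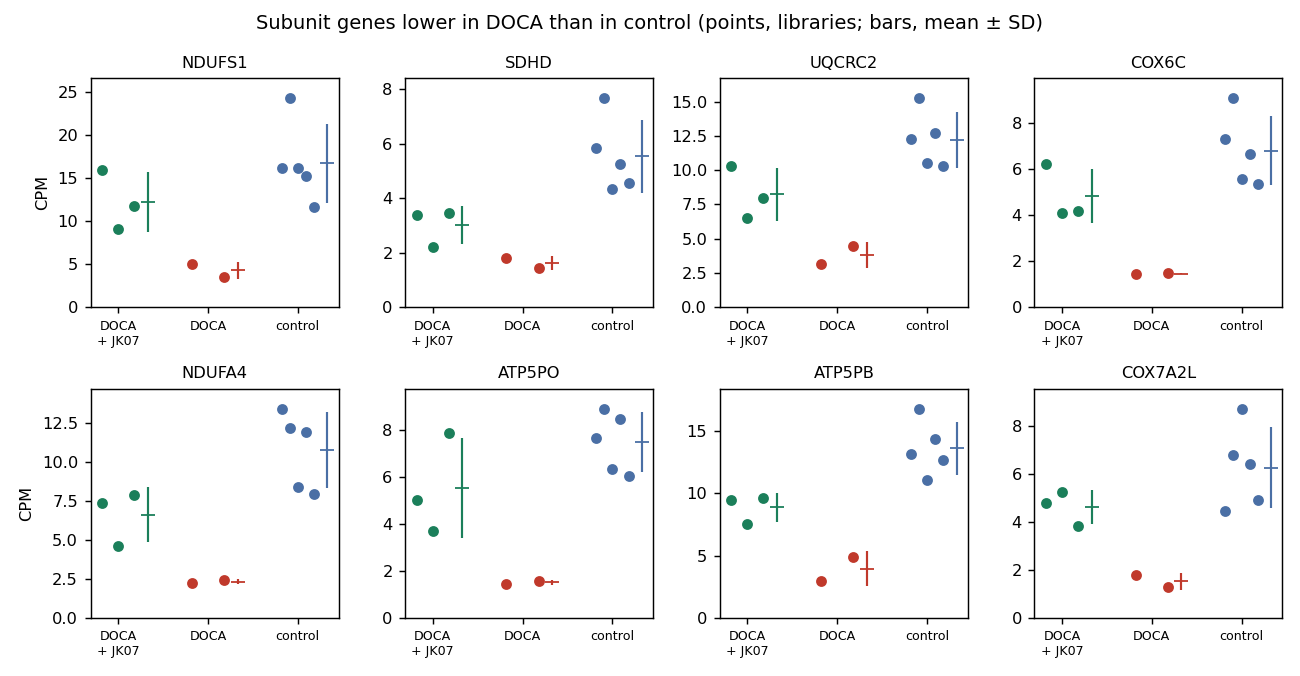
CPM in each library of 8 members called lower in DOCA than in control, with DOCA plus JK07 (libraries 8 to 10), DOCA (6 and 7) and control (1 to 5) from left to right; points are libraries and bars mean ± SD (n = 3, 2 and 5). The DOCA points lie below all control points in each panel, and the DOCA plus JK07 points lie above both DOCA points.

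Complex IV, cytochrome c oxidase, had 7 of its 15 tested members lower in DOCA. COX6C (ENSSSCG00000060790, chromosome 4, 37074649 to 37091849) had 1.43 and 1.47 CPM in DOCA against 7.33, 9.09, 5.57, 6.67 and 5.35 CPM in control, a log2 change of -2.23 ± 0.31 (adjusted p = 0.000587). NDUFA4 (ENSSSCG00000024313, chromosome 9, 80636929 to 80644315) had 2.2 and 2.44 CPM in DOCA against 13.4, 12.2, 8.39, 11.9 and 7.92 CPM in control, at -2.21 ± 0.32 (adjusted p = 0.000826). In CPM the DOCA libraries of each gene nearly coincided and lay far under every control. In rescaled TPM the DOCA libraries lay further apart, at 6.84 ± 4.16 for COX6C and 42.5 ± 27.7 for NDUFA4 (SD, n = 2). The control values on that scale were 34.9 ± 6.23 and 212 ± 47.6 (SD, n = 5). COX5A (chromosome 7, 58622964 to 58644021), a matrix-side subunit that is part of the early assembly core, had 3.46 and 3.21 CPM in DOCA and 7.56, 7.78, 6.54, 9.61 and 6.02 CPM in control, a log2 change of -1.17 ± 0.26 (adjusted p = 0.00933). COX7B on the X chromosome changed by -2.19 ± 0.34 (adjusted p = 0.00117), COX5B by -1.29 ± 0.33 (adjusted p = 0.0197) and COX8H by -1.68 ± 0.47 (adjusted p = 0.0292). COX7C had 2.43 and 0 CPM in DOCA and 10.3, 12.6, 8.49, 11.2 and 8.27 CPM in control, with a 0 in library 7, and was not called, at -3.04 ± 1.11 (adjusted p = 0.0796).

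COX4I1, the most abundant member per length and the partner of COX5A in assembly, was not called. It had 18.2 and 25.5 CPM in DOCA and 20.6, 23, 30.2, 21.9 and 25.4 CPM in control, so the groups overlapped. Its log2 change was -0.15 ± 0.33 (adjusted p = 0.774), and the sign turned without library 6 (0.07) and under upper quartile scaling (0.11). COX4I2 had 0.23 and 0.937 CPM in DOCA and 0.529, 0.496, 0.77, 0.67 and 0.32 CPM in control, with the DOCA libraries on either side of the controls. Its log2 change of 0.06 ± 0.74 (adjusted p = 0.962) had no stable sign. NDUFA4L2 had 1.18 and 1.1 CPM in DOCA and 0.622, 0.196, 0.89, 0.249 and 0.838 CPM in control, and with 1.03 ± 0.70 (adjusted p = 0.312) it held the highest log2 change of all members without passing the test.

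Calls were made among both the muscle and the ubiquitous isoforms. Of the muscle forms COX8H fell, at 0.768 and 1.04 CPM in DOCA and 2.43, 3.56, 2.72, 4.11 and 1.6 CPM in control. The call of COX8H was lost without control library 2, 3 or 4, without either DOCA library, and under upper quartile scaling. COX7A1 (chromosome 6, 45517229 to 45520713) had 9.62 and 6.26 CPM in DOCA and 7.34, 9.47, 9.9, 9.04 and 7.16 CPM in control, inside the control range in library 6 and below it in library 7, with a log2 change of -0.11 ± 0.25 (adjusted p = 0.775) whose sign turned without library 7 (0.16) and under upper quartile scaling (0.12). COX6A2 (chromosome 3, 17133476 to 17135104) had 1.64 and 4.28 CPM in DOCA and 2.86, 5.87, 5.94, 4.97 and 3.43 CPM in control, at -0.64 ± 0.50 (adjusted p = 0.366). The DOCA libraries of COX6A2 were far apart in CPM. In rescaled TPM the DOCA values were 60.7 ± 62.7 for COX6A2, 42.7 ± 13.8 for COX7A1 and 39.5 ± 30.2 for COX8H (SD, n = 2).

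Among the ubiquitous forms COX6A1 (chromosome 14, 40408631 to 40412870) was at 0 in both DOCA libraries, against 0.747, 1.37, 1.38, 0.717 and 1.43 CPM in control, and was called. Its control mean was only 1.11 times what a coverage of 1 would give there, so an undetected level near that of control was possible at this depth. COX7A2 had 0.717 and 0 CPM in DOCA and 1.38, 1.23, 0.78, 1.62 and 1.19 CPM in control, with no call. COX8A (chromosome 2, 8101613 to 8103285) had 1.31 and 1.61 CPM in DOCA and 1.77, 2.16, 2.3, 1.93 and 1.72 CPM in control, just below all controls, at -0.44 ± 0.29 (adjusted p = 0.299). No difference between isoforms was tested.

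**Figure D4:**
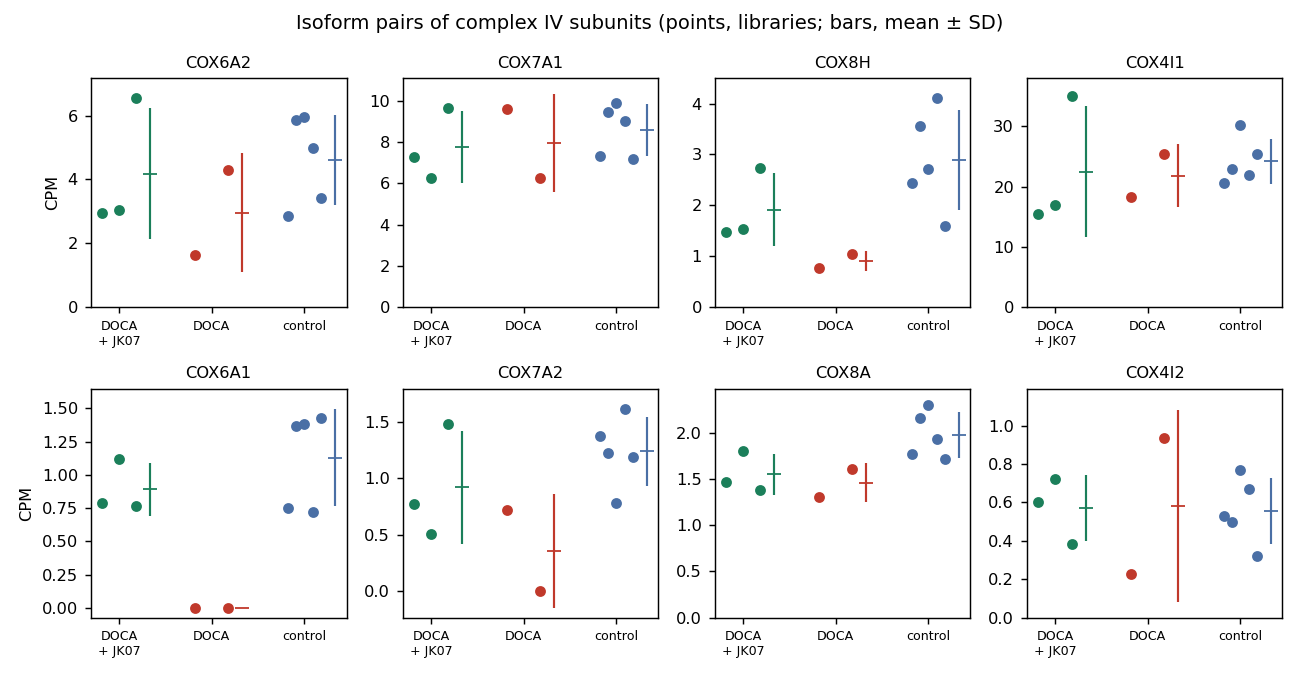
CPM in each library of the isoform pairs of complex IV, with DOCA plus JK07, DOCA and control from left to right; points are libraries and bars mean ± SD (n = 3, 2 and 5). COX8H and COX6A1 lie lower in both DOCA libraries than in every control, and COX7A1, COX4I1 and COX4I2 overlap the controls.

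In complex V the calls fell mostly on the stalk and the F1 head. All 3 genes of the peripheral stalk that were measured, which holds the catalytic head in place, were lower in DOCA. ATP5PO (ENSSSCG00000012042, chromosome 13, 197509331 to 197519588), the stalk subunit that confers sensitivity to oligomycin, had 1.43 and 1.57 CPM in DOCA and 7.65, 8.89, 6.32, 8.45 and 6.03 CPM in control, a log2 change of -2.31 ± 0.34 (adjusted p = 0.00093). ATP5PB (ENSSSCG00000037772, chromosome 4, 108896057 to 108907805), subunit b, had 2.94 and 4.92 CPM in DOCA and 13.2, 16.8, 11.1, 14.4 and 12.7 CPM in control, at -1.80 ± 0.27 (adjusted p = 0.000887). The third, ATP5PF, changed by -1.27 ± 0.32 (adjusted p = 0.0186). No stalk gene overlapped between the groups. The head genes ATP5F1C (gamma) and ATP5F1A (alpha, chromosome 1, 95733090 to 95750841) changed by -1.69 ± 0.34 (adjusted p = 0.0062) and -0.77 ± 0.23 (adjusted p = 0.0396). ATP5F1A had 35.2 and 27.6 CPM in DOCA and 50.9, 64.9, 46.3, 52 and 54.1 CPM in control, and its call held in only 2 of the 10 fits that left out 1 library. ATP5F1D (chromosome 2, 77216436 to 77222632) had 5.71 and 6.49 CPM in DOCA and 6.97, 9.68, 8.2, 7.74 and 7.08 CPM in control, at -0.38 ± 0.25 (adjusted p = 0.294).

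The 3 genes for the identical subunit c of the rotor ring differed in their calls. ATP5MC1 (chromosome 12, 25110528 to 25113478) had 3.2 and 2.51 CPM in DOCA and 6.87, 7.67, 6.36, 7.98 and 5.56 CPM in control, a log2 change of -1.27 ± 0.24 (adjusted p = 0.00452). ATP5MC3 (chromosome 15, 81083960 to 81094289) had 7.68 and 6.69 CPM in DOCA and 10.7, 15.3, 11, 13.3 and 10.3 CPM in control, just short of the threshold at -0.75 ± 0.25 (adjusted p = 0.0524). ATP5MC2 (chromosome 5, 18871026 to 18879609) had 5.66 and 4.82 CPM in DOCA and 6.64, 7.35, 6.06, 8.59 and 6.85 CPM in control, at -0.44 ± 0.21 (adjusted p = 0.171). In all 3 genes both DOCA libraries lay below every control. The difference between the genes was not tested.

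ATP5MK, a small membrane subunit, had the most negative log2 change of complex V, -2.56 ± 0.51 (adjusted p = 0.00549), with 0.409 and 0.167 CPM in DOCA and 1.48, 2.23, 1.36, 1.9 and 1.66 CPM in control. ATP5IF1 (chromosome 6, 85307189 to 85309215), which blocks ATP hydrolysis when the gradient fails, had 2.28 and 5.22 CPM in DOCA and 4.26, 7.05, 7.49, 4.88 and 4.62 CPM in control. The groups overlapped, and the log2 change was -0.60 ± 0.49 (adjusted p = 0.385). COX7A2L (ENSSSCG00000008466, chromosome 3, 97951114 to 97983309) had 1.77 and 1.27 CPM in DOCA and 4.46, 6.79, 8.69, 6.42 and 4.92 CPM in control, a log2 change of -2.04 ± 0.33 (adjusted p = 0.00167). Its DOCA libraries lay far below the lowest control.

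Taken by library, the median over the 72 members of CPM divided by the control mean was 0.761, 0.594 and 0.963 in DOCA plus JK07, 0.510 and 0.438 in DOCA, and 0.838 to 1.19 in control. Both DOCA libraries were low in every complex, from 0.371 in complex IV of library 6 to 0.572 in complex I of library 6. DOCA plus JK07 library 9 came near them in some complexes, at 0.601 in complex I, 0.541 in complex III and 0.546 in complex V. In complex IV it stood further off, at 0.650 against 0.371 and 0.428 in DOCA. Library 10 lay inside the control range in each complex. The summed CPM of all members was 433, 324 and 535 in DOCA plus JK07, 320 and 264 in DOCA and 465 to 655 in control. This order depends on the scale, since library 6 had a TMM scaling factor of 0.511 and the other libraries 0.871 to 1.35. In rescaled TPM the members summed to 3500, 3250 and 4940 in DOCA plus JK07, 1510 and 3670 in DOCA, and 4560 to 5700 in control. Library 6 then lay far below library 9, and DOCA library 7 lay above DOCA plus JK07 libraries 8 and 9, while both DOCA libraries stayed below every control on either scale.

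**Figure D5:**
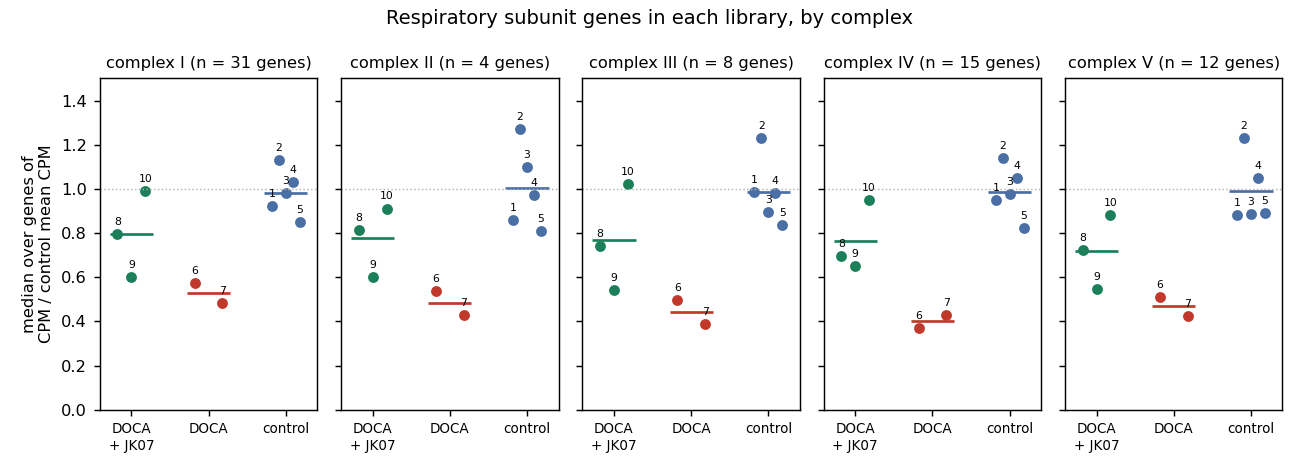
Median over the tested members of each complex of CPM divided by the control mean, per library (points, with library numbers; lines are group means; dotted line, 1). The DOCA libraries 6 and 7 lie between 0.371 and 0.572 in all 5 complexes, below every other library of the same complex, and libraries 8, 9 and 10 differ widely.

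The comparison of DOCA plus JK07 with DOCA asked what JK07 changed in animals given DOCA. Of the 72 members tested, 17 rose and 0 fell, against 14.7% called higher and 2.25% called lower over all genes tested. The calls were 5 in complex I, 0 in complex II, 2 in complex III, 5 in complex IV, 4 in complex V, and COX7A2L. The median log2 change was 0.61, close to 0.55 over all genes. All 3 DOCA plus JK07 libraries exceeded both DOCA libraries in 27 of 72 members, against 30.3% of all genes tested. The members called made up 23.6% of those tested. The same DOCA libraries serve this comparison and that of DOCA with control.

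The count of 17 moved with the libraries in the fit. It was 10 without DOCA plus JK07 library 8 (13.9% of members tested, against 12.3% of all genes tested). Without library 10 it was 11 (15.3% against 14.4%), and without library 9 it was 19 (26.4% against 13.5%). It was 14 to 16 when 1 control library was left out (19.4 to 22.2%, against 13.0 to 14.4%). When only these 2 groups entered the fit it was 4, which was 5.56% of members against 14.3% of all genes. With quality weights it was 0. There 5 members had an unadjusted p under 0.05, and over all genes 1 was called higher and 4 lower. In 10 of the 17 the call held whichever library was left out.

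Several genes with clear values stood among those 10. COX6C had 6.21, 4.1 and 4.19 CPM in DOCA plus JK07 and 1.43 and 1.47 CPM in DOCA, a log2 change of 1.73 ± 0.31 (adjusted p = 0.0037). NDUFA4 had 7.39, 4.63 and 7.84 CPM in DOCA plus JK07 and 2.2 and 2.44 CPM in DOCA, a log2 change of 1.51 ± 0.33 (adjusted p = 0.0106). ATP5PO had 5, 3.68 and 7.86 CPM in DOCA plus JK07 and 1.43 and 1.57 CPM in DOCA, a log2 change of 1.87 ± 0.35 (adjusted p = 0.00456). In these subunits of complexes IV and V every DOCA plus JK07 library lay above both DOCA libraries, and library 9 was the lowest of the 3. COX7A2L had 4.79, 5.22 and 3.84 CPM in DOCA plus JK07 and 1.77 and 1.27 CPM in DOCA, a log2 change of 1.60 ± 0.34 (adjusted p = 0.00974). Here library 9 was the highest.

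NDUFC1, NDUFB1 and COX6A1 were above 0 in all 3 DOCA plus JK07 libraries. NDUFC1 had 1.17, 0.59 and 0.751 CPM there, NDUFB1 0.579, 0.301 and 0.667 CPM and COX6A1 0.788, 1.12 and 0.767 CPM, against 0 in both DOCA libraries for each. For COX6A1 these values lie near or under the 0.883 and 1.15 CPM that a coverage of 1 corresponds to in libraries 6 and 7. Such calls therefore carry no fold change.

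Other named members lost their calls when single libraries were left out. NDUFS1 had 15.9, 9.04 and 11.8 CPM in DOCA plus JK07 and 4.99 and 3.55 CPM in DOCA, a log2 change of 1.52 ± 0.35 (adjusted p = 0.0162), and lost its call without library 7 or 8. UQCRQ had 3.89, 2.55 and 3.94 CPM in DOCA plus JK07 and 1.31 and 0.636 CPM in DOCA, at 1.83 ± 0.46 (adjusted p = 0.0232), and lost it without library 7, 8 or 10. UQCRC2 had 10.3, 6.48 and 7.96 CPM in DOCA plus JK07 and 3.15 and 4.48 CPM in DOCA, at 1.11 ± 0.28 (adjusted p = 0.0228), and kept it in 5 of the 10 fits. Both complex III calls were lost without library 8 or without library 10, and 1 was lost without library 1, 4, 6 or 7. ATP5PB had 9.44, 7.56 and 9.64 CPM in DOCA plus JK07 and 2.94 and 4.92 CPM in DOCA, at 1.18 ± 0.27 (adjusted p = 0.0148), and complex V was left with 1 call without library 8 or 10 and 2 calls without library 4 or 7.

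Complex II had no call in this comparison. SDHD had 3.4, 2.21 and 3.44 CPM in DOCA plus JK07 and 1.79 and 1.44 CPM in DOCA, at 0.90 ± 0.33 (adjusted p = 0.0987). SDHB had 9.3, 8.23 and 13 CPM in DOCA plus JK07 and 5.5 and 7.09 CPM in DOCA, at 0.69 ± 0.31 (adjusted p = 0.176). The values of both genes in DOCA plus JK07 lay above those in DOCA, but no call was made. COX4I1, CYC1 and COX7A1, not called in DOCA against control, had log2 changes of 0.04, 0.01 and -0.04.

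DOCA plus JK07 was also set against control. No member and no gene at all passed the edgeR threshold (0.0% of all genes tested). At an unadjusted p under 0.05 there were 8 of 72 members, all lower in DOCA plus JK07, against 4.65% of all genes tested. The DESeq2 Wald test called 1 member, NDUFB4 of the complex I membrane arm. The log2 change was below 0 in 65 of 72 members, against 50.1% of all genes, and its median was -0.37, against 0.00. Every DOCA plus JK07 library lay below every control library in 7 members, against 2.45% of all genes: NDUFB4, SDHD, NDUFA4, ATP5MC1, ATP5MK, ATP5PB and ATP5PF. These 7 were named for this after their values were seen.

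NDUFB4 (chromosome 13, 139724148 to 139730493) had 0.665, 0.578 and 0.934 CPM in DOCA plus JK07 and 2.02, 1.94, 1.31, 1.75 and 1.23 CPM in control, with 0.64 and 0.669 CPM in DOCA. Its log2 change was -1.18 ± 0.37 against control (adjusted p = 1) and 0.15 ± 0.45 (adjusted p = 0.876) against DOCA. SDHD had 3.4, 2.21 and 3.44 CPM in DOCA plus JK07 and 5.85, 7.69, 4.34, 5.25 and 4.55 CPM in control, a log2 change of -0.88 ± 0.26 (adjusted p = 1). NDUFA4 and ATP5PB stood at -0.70 ± 0.25 (adjusted p = 1) and -0.62 ± 0.21 (adjusted p = 1). ATP5MC1 stood at -0.61 and ATP5MK at -0.64. For SDHD, NDUFA4, ATP5PB, ATP5MC1 and ATP5MK the DOCA plus JK07 libraries lay between DOCA and control without touching either group. UQCRC2, with -0.57, was intermediate on average.

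Related gene lists were read beside the members. The 13 subunits encoded by the mitochondrial genome were all lower in DOCA than in control (median log2 change -2.93) and all higher in DOCA plus JK07 than in DOCA (3.51). They summed to 843 to 1810 CPM in DOCA plus JK07, 157 and 70.3 CPM in DOCA and 521 to 1020 CPM in control. Whether their amount plays a part in the values of the nuclear subunit genes was not tested. Both kinds of subunit gene were low in libraries 6 and 7. In libraries 8 to 10 the mitochondrially encoded ones lay within or above the control range, while the nuclear ones summed to 324 to 535 CPM, against 465 to 655 CPM in control.

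Assembly factors build the complexes without staying in them. Of 50 tested, 15 were lower and 2 higher in DOCA than in control, against 19.7% and 5.73% of all genes tested. Their median was -1.08, which includes fitted changes of genes at 0 in both DOCA libraries. Of the 15, 11 were at 0 in both DOCA libraries, among them COX15, which makes haem a, and the complex I factors NDUFAF1 and ACAD9. The level that a coverage of 1 would give was not worked out for these 11, so their calls carry no fold change. The other 4 were NDUFAF7, COX20, LRPPRC and ATPAF1. LRPPRC, which stabilises mitochondrial messenger RNA, had 4.81 and 3.11 CPM in DOCA and 14.7, 13.3, 10.3, 12 and 10.3 CPM in control, a log2 change of -1.61 ± 0.26 (adjusted p = 0.00146). TTC19 and ATPAF2, factors of complexes III and V, rose by 1.30 and 1.44 on the log2 scale. With JK07, 12 of the 50 were higher and 1, TTC19, lower than in DOCA, against 14.7% and 2.25% of all genes. Of the 12, 9 were at 0 in both DOCA libraries. Against control 0 passed.

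Cytochrome c and coenzyme Q carry electrons between the complexes. Of 15 genes for them, CYCS, COQ3 and COQ6 fell and COQ8B rose in DOCA. Over all genes tested, 19.7% were lower and 5.73% higher, so these counts were close to that share. CYCS, cytochrome c, had 6.81 and 2.54 CPM in DOCA and 15.4, 18, 13, 13.2 and 10.4 CPM in control, a log2 change of -1.58 ± 0.43 (adjusted p = 0.0278). DOCA plus JK07 had 9.94, 5.81 and 11.8 CPM of it, overlapping the controls and, in library 9, the DOCA libraries. The list had 1 gene higher in DOCA plus JK07 than in DOCA, COQ6, against 14.7% of all genes tested, and 0 called against control. Of the complex I and V subunits outside the naming rule, NDUFAB1 and DMAC2L, neither was called in any comparison.

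Of 16 transcriptional regulators of these genes tested, 1 was lower and 2 higher in DOCA than in control, against 19.7% and 5.73% of all genes. The median log2 change of the regulators was 0.27. GABPB1, part of an activator of respiratory genes, was at 0 in both DOCA libraries, against 3.19, 3.3, 2.77, 3.44 and 3.02 CPM in control. The level that a coverage of 1 would give was not worked out for GABPB1 either. YY1 and POLRMT, the polymerase of the mitochondrial genome, rose by 0.56 and 1.34 on the log2 scale. PPARGC1A, the coactivator of mitochondrial biogenesis, had 99.5, 66.4 and 35.1 CPM in DOCA plus JK07, 129 and 20.7 CPM in DOCA and 136, 53.6, 40.3, 36.5 and 51.6 CPM in control, so that the DOCA libraries spanned nearly the whole range. GABPB1 was the only regulator called in DOCA plus JK07 against DOCA, and 0 were called against control.

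Ribosomal protein genes, which serve the cytosol, were set beside the members. Of 54 of them, a list added after the first results, 33 were lower and 0 higher in DOCA than in control. That compares with 19.7% and 5.73% of all genes tested. Their median was -1.04, nearly that of the respiratory members. In DOCA plus JK07 12 were higher than in DOCA, against 14.7% of all genes tested, and the median against control was -0.42. The lower values in DOCA were thus shared with genes outside respiration. By gene span, 36.8% of members under 5 kb, 41.0% from 5 to 20 kb and 38.5% from 20 to 100 kb were lower in DOCA, against 12.0%, 15.8% and 26.2% of all genes of these classes. Across the 72 members the log2 change was related weakly to span (Spearman rho -0.13) or to the control level per length (0.02), as a description over genes of the same libraries.

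Markers of other cells summed to less than those of cardiomyocytes in every group. Of 11 cardiomyocyte markers 1 fell, TNNC1, at 10.6 and 19.4 CPM in DOCA and 41.3, 52.9, 47.7, 43.9 and 34.3 CPM in control. Of 8 fibroblast markers 0 were called, and they summed to 587 to 1490 CPM in DOCA plus JK07, 558 to 2190 CPM in DOCA and 589 to 2330 CPM in control. Of 8 endothelial markers CLDN5 rose, and EMCN was at 0 in both DOCA libraries, with sums of 109 to 166 CPM in DOCA plus JK07, 103 to 171 CPM in DOCA and 113 to 246 CPM in control. Of 8 macrophage markers 0 were called, with sums of 27.4 to 72.5 CPM in DOCA plus JK07, 56.4 to 67.6 CPM in DOCA and 39.4 to 134 CPM in control. Of 8 mural cell markers RGS5 and ABCC9 fell, with sums of 112 to 141 CPM in DOCA plus JK07, 80.6 to 95.1 CPM in DOCA and 93.0 to 146 CPM in control. In DOCA plus JK07 against DOCA, 4 of these markers were called. RGS5 changed by 1.65 ± 0.43 (adjusted p = 0.0283) and ABCC9 by 2.54 ± 0.45 (adjusted p = 0.00312), both higher with JK07 as the members called there were. CLDN5 changed by -1.16 ± 0.33 (adjusted p = 0.0414), and EMCN had 2.71, 4.41 and 3.4 CPM in DOCA plus JK07, against the 0 in both DOCA libraries. Apart from EMCN, no marker was at 0 in both DOCA libraries, and the part of other cells in the members' values was not tested.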

How the data were processed

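Nuclear RNA of sorted cardiomyocytes was sequenced in 10 libraries after TRIzol extraction and TruSeq RNA library preparation, per the labels' protocols. The build was Sscrofa11.1, and StringTie, SAMtools and edgeR were the tools, per the submitters' processing notes. The aligner, the annotation release and the use of strand were not stated in the labels or files used here. Overlapping and antisense genes, and members with processed copies elsewhere in the genome, are therefore uncertain.

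Per the file headers, the authors deposited for each library a coverage signal, FPKM and TPM for 35670 identifiers. FPKM entered no test. TPM served for levels per length, rescaled to rows outside 2 ribosomal RNA scaffolds and the mitochondrial genome, and for an alternative. The authors also deposited estimated counts, all whole numbers, in a table without gene names. Its lines were matched to sorted identifiers: zeros then coincided between the tables in 99.998% of values, against 62.6% after a move by 1 line. For 71 of 73 members the count and coverage profiles correlated above 0.9. Coverage above 0 was under 1 in 10 of 708 member values.

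Differences were tested with edgeR 4.0.16 (quasi-likelihood F test, R 4.3.3) after TMM scaling, with the filterByExpr filter and a term for group, over all 10 libraries and 17251 genes, with Benjamini-Hochberg adjustment and a threshold of 0.05. Errors of log2 changes are approximate standard errors. CPM used the TMM-scaled total count. With 2 DOCA libraries, the spread came mainly from the other groups. Alternatives used DESeq2 1.42.0 and limma 3.58.1, and the scripts were tested on simulated data.

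The members, lists and tests were chosen with earlier results of these data known. Named by rule were, per complex, up to 3 members of lowest adjusted p in DOCA against control, up to 2 in DOCA plus JK07 against DOCA, the most abundant in control, any at 0 in both DOCA libraries, the catalytic cores and the isoform pairs. Other names were chosen after their values were seen. Of the names fixed beforehand, ATP5F1B, COX6B1 and COX8C matched no row. Other subunit names were absent too, NDUFS7, UQCRH and ATP5PD among them, so the counts per complex do not cover whole complexes. Gene sequences and the planned promoter motifs were not used here. The values of 1 member are not reported here, though it stays in the counts.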

Additional observations from a re-analysis of the deposited data

How the results depend on the processing

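The 10 alternatives other than leaving out a library gave 0 to 50 members lower in DOCA than in control, against 29, and 0 higher in each. With limma on log2(TPM + 1) the count was 48 (66.7% of members, against 28.6% of all genes called lower). It was 50 with a pseudocount of 0.1 (69.4% against 32.9%) and 0 with quality weights (0.0% against 0.545%). When 1 control or DOCA plus JK07 library was left out, it ran from 22 to 29. That was 30.6 to 40.3% of members, against 14.8 to 17.5% of all genes. Leaving out a DOCA library left 1 in that group. Without DOCA library 6 the median log2 change of the members was -1.19, against -0.95 over all genes. Without DOCA library 7 these medians were -0.98 and -0.82. The differences of -0.24 and -0.16 were smaller than the -0.42 of the main fit. For DOCA plus JK07 against DOCA, the 17 higher became 38 and 42 with limma on TPM, 0 with quality weights, 4 with only these groups in the fit, and 10 to 20 when 1 library was left out. Against control the DESeq2 Wald test called 1 member lower. The causes of these moves were not tested. The fits of 2 groups and of 9 libraries also held fewer libraries, and the part of that was not tested either.

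Among the members named by rule, those recomputed here, the direction of 4 uncalled genes turned in DOCA against control. Under upper quartile scaling the log2 change was 0.045 for CYC1, 0.106 for COX4I1 and 0.12 for COX7A1. Leaving out 1 library gave -0.558 to 0.101 for CYC1, -0.414 to 0.072 for COX4I1, -0.458 to 0.16 for COX7A1 and -1.273 to 0.746 for COX4I2, each turning on DOCA library 6 or 7. COX4I2 also turned to -0.081 without control library 5, to -0.214 and -0.589 with limma on TPM at pseudocounts of 1 and 0.1, and to -0.467 with quality weights. The cause was not tested. Complex I had 13 lower in DOCA with the DESeq2 Wald test and 21 with limma on TPM, against 8.

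No paired analysis was possible because the labels number the libraries from 1 to 10 and no number is shared between groups. The DOCA group has 2 libraries, which are also the shallowest outside the ribosomal scaffolds and have the highest ribosomal share, so these and DOCA cannot be told apart.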
